A study of Mus musculus with 2 samples.

Results

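The genes described here are 10 matrix genes of liver mesenchymal cells, chosen by symbol: Col1a1, Col1a2, Col3a1, Col4a1, Col4a2, Col6a1, Dcn, Bgn, Sparc and Timp1. All 10 were found among the 31053 genes of the deposited tables. They were measured by single-cell RNA sequencing of liver cells of C57BL/6 mice, with 1 library from mice fed chow and 1 library from mice fed a NASH diet, each for 6.5 weeks. NASH is non-alcoholic steatohepatitis, and per the labels the diet was high in fructose, fat and cholesterol. Livers were digested with collagenase and cells were recovered over Percoll. No treatment or allele other than the diet is labelled, and how many mice entered a library, with their sex and age, is not stated in these sources. Each unique molecular identifier (UMI) counts 1 captured RNA molecule, and a barcode stands for 1 droplet, which can hold more than 1 cell. With 1 library for each diet there is no test between diets: every interval below is a 95% interval of counting error only, and differences between mice are not in it.

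Fibrillar collagens (Col1a1, Col1a2 and Col3a1) build the rope-like fibres of scar tissue, and in the injured liver they come mainly from hepatic stellate cells and portal fibroblasts. Collagen IV (Col4a1 with Col4a2) forms the sheet-like network of basement membranes and is made by endothelial cells as well as by mesenchymal cells. Collagen VI (Col6a1) forms beaded microfibrils around cells. Decorin (Dcn) and biglycan (Bgn) are small leucine-rich proteoglycans that bind collagen fibrils, Sparc is a collagen-binding matricellular protein, and Timp1 inhibits matrix metalloproteinases. Quiescent stellate cells store vitamin A and lie in the space of Disse, against the sinusoidal endothelium.

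The pair Col4a1 and Col4a2 is shown first because the data turn on how the collagen IV genes differ from the fibrillar ones. In GENCODE M21 on GRCm38, Col4a1 lies on the reverse strand of chromosome 8 from 11198423 to 11312826 and Col4a2 on the forward strand from 11312805 to 11449287, so the first bases of the 2 genes overlap head to head. Their annotated starts are 21 bases apart. RefSeq windows from 250 bases before to 50 bases after the start (GRCm38.p6) were found for 8 of the 10 members, all but Col1a1 and Dcn. The windows of the pair share 78 bases, printed in capitals, each read 5′ to 3′ on its own gene's strand.
Col4a1, chr8:11312777-11313076, reverse strand: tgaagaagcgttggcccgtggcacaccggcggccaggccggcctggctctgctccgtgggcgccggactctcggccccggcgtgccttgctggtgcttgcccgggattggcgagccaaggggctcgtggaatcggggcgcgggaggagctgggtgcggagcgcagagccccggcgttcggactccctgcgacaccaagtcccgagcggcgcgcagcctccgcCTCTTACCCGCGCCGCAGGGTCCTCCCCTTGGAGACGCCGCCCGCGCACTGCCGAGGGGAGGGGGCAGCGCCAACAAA
Col4a2, chr8:11312555-11312854, forward strand: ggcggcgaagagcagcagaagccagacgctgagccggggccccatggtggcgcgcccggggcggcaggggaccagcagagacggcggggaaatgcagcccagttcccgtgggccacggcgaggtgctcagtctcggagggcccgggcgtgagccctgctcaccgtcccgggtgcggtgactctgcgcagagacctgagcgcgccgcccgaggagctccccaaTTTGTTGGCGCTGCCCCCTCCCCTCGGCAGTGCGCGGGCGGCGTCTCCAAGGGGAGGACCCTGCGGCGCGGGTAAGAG

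The windows of Col1a2 and Col3a1 are given for contrast, because these genes were both counted almost only in barcodes with Dcn while lying on chromosomes 6 and 1, with no shared start. Capitals mark CCAAT or, on the other strand, ATTGG.
Col1a2, chr6:4505368-4505667, forward strand: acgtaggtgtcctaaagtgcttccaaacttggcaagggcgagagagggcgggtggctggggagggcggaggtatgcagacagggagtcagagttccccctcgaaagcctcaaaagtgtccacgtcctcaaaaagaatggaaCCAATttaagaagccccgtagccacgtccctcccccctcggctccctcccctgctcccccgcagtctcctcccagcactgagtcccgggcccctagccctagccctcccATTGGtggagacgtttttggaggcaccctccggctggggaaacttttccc
Col3a1, chr1:45311288-45311587, forward strand: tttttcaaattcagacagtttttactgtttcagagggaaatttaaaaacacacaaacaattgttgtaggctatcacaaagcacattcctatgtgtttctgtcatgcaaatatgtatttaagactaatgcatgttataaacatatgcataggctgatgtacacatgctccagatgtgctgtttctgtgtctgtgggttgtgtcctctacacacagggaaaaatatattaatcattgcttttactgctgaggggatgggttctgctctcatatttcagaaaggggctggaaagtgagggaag

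The Col1a2 window holds 2 such matches and the Col3a1 window has no match to these letters. Of the 32851 RefSeq windows of this length, 37.4% hold CCAAT or its reverse complement, and so do 4 of the 8 member windows (Col1a2, Col4a1, Col4a2 and Timp1). TATAAA, searched on both strands, is in 13.6% of all windows and in 1 member window, that of Col3a1. The G and C content was 74.0% and 73.7% in the Col4a1 and Col4a2 windows, 61.0% in that of Col1a2 and 37.7% in that of Col3a1. The other members lie on chromosome 11 (Col1a1, 94936224 to 94953042, and Sparc, 55394500 to 55423183), chromosome 10 (Col6a1, 76708792 to 76726168, and Dcn, 97479609 to 97518143) and chromosome X (Bgn, 73483602 to 73495933, and Timp1, 20870166 to 20874735).

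The libraries held 7359 chow barcodes with 71635757 UMIs and 5881 NASH diet barcodes with 39440182 UMIs. A filter on genes (200 or more), UMIs (500 or more) and the mitochondrial part of the UMIs (no more than 30%) left 4326 and 2369. The limit on mitochondrial UMIs removed far more NASH diet barcodes between 30 and 80% (2389, against 463). The 2 libraries shared 69 barcode sequences, among them 1 of the chow barcodes described below. Kept barcodes held nearly all fibrillar collagen UMIs, 95.6% for chow and 97.1% for the NASH diet.

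Mesenchymal barcodes were those past a gate on Dcn, with at least 2 Dcn UMIs that make up at least 200 CPM (counts scaled to 1000000 UMIs of the barcode). Endothelial barcodes were those past the same gate on Ptprb and Kdr, 2 receptors of endothelial cells. Kupffer cells, the resident macrophages of the liver, other leukocytes and cholangiocytes had gates of their own. In the plan, a barcode past several gates was left out of every class. The Dcn gate was passed by 18 chow and 21 NASH diet barcodes, but only 3 and 6 of them passed no other gate. Of the 18 chow barcodes, 13 passed the endothelial gate, 8 of these also the Kupffer gate, and 2 more passed the Kupffer gate without the endothelial one. Of the 21 NASH diet barcodes, 15 passed the endothelial gate, 3 of these also the Kupffer gate and 2 also the leukocyte gate.

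**Figure D1:**
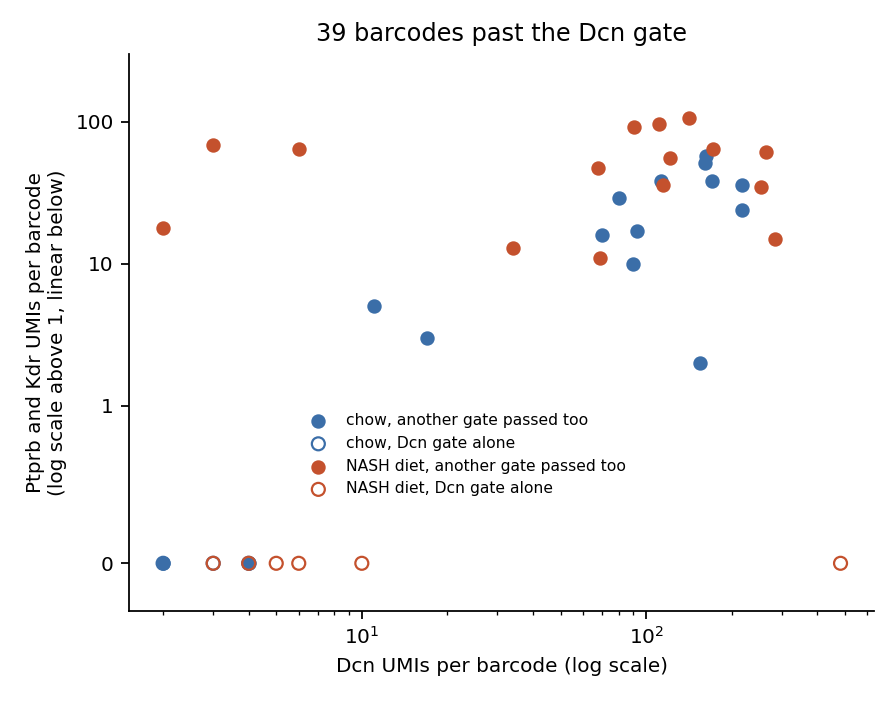
Dcn UMIs (x axis, log scale) against summed Ptprb and Kdr UMIs (y axis, log scale above 1) in each of the 39 barcodes past the Dcn gate, coloured by library; open circles passed the Dcn gate alone, and some points at 0 overlap. Apart from 1 NASH diet barcode with 483 Dcn UMIs, the barcodes past the Dcn gate alone had at most 10 Dcn UMIs.

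Barcodes that carried much Dcn therefore carried endothelial RNA as well, in both libraries, except for that 1 NASH diet barcode. All 11 chow barcodes with 70 or more Dcn UMIs passed the endothelial gate, and in the plot of Dcn against Ptprb and Kdr they lie between 2 and 57 Ptprb and Kdr UMIs. The barcodes past the Dcn gate alone were shallow: their median was 565 UMIs for chow and 1181 for the NASH diet, against 14386 and 19639 for those past another gate too. Barcodes past the endothelial gate alone numbered 44 and 40, with medians of 5308 and 5394.5 UMIs. Scrublet, which scores barcodes for likeness to simulated doublets, called 0 barcodes in either library by its own threshold, and none of the 39 barcodes was among its highest scores. Dcn-gated barcodes were 0.416% of kept barcodes for chow and 0.886% for the NASH diet, so few simulated doublets would include them. The scores therefore cannot decide whether the 39 barcodes are doublets. Whether these barcodes are droplets with several cells, cells that stayed attached or cells with free RNA was not tested.

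The label was checked against stellate markers that are not members. Of the Dcn-gated barcodes, 15 of 18 in chow and 17 of 21 in the NASH diet library also passed a gate on at least 2 of 9 such markers, among them Lrat, which esterifies retinol, Reln and Colec11. Over all Dcn-gated barcodes Lrat had 129 chow and 206 NASH diet UMIs, Reln 162 and 218, Colec11 172 and 288, and Rgs5, a marker of stellate cells and pericytes, 231 and 240. Msln, Upk3b, Wt1 and Gpm6a of mesothelium had 0 UMIs in both libraries. The portal fibroblast markers were mixed: Thy1, Fbln2, Clec3b and Pi16 had 0 or 1 UMI, Mfap4 0 and 3, Entpd2 0 and 4, Eln 3 and 5, and Cd34 0 and 8, while Dpt had 2 and 33 and Gas6 16 and 45. Whether some of the barcodes hold portal fibroblast RNA was not tested. The cholangiocyte markers Epcam, Krt19 and Krt7 were also at 0. Some barcodes fit the label poorly. In chow, 2 barcodes past the Dcn and Kupffer gates had 4 and 2 Dcn UMIs, and in the NASH diet library 3 barcodes with 18, 64 and 69 Ptprb and Kdr UMIs had only 2, 6 and 3 Dcn UMIs.

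The fibrillar collagens were counted almost only in Dcn-gated barcodes, under both diets. Of 131 kept fibrillar UMIs in chow, 126 (96.2%, interval 91.3 to 98.7%) lay in Dcn-gated barcodes, and of 1287 in the NASH diet library, 1279 (99.4%, 98.8 to 99.7%) did. Barcodes past the endothelial gate alone held 2 of these UMIs in each library, and all 2214 chow and 1294 NASH diet hepatocyte barcodes together held 2 and 4. Kupffer barcodes held 0 in both. By the planned rule, which leaves out barcodes past several gates, the Dcn class kept 0 of the 131 chow UMIs and 60 of the 1287 NASH diet UMIs (4.66%, interval 3.58 to 5.96%), because those classes are 3 and 6 barcodes. At a floor of 3 counts over the chow barcodes, the log2 ratio of NASH diet over chow in those barcodes was bounded at 0.43, with a lower counting limit of 0.09. Of the 60 NASH diet UMIs, 57 lay in 1 barcode. Because so few barcodes and UMIs lie behind this bound, the description below uses all Dcn-gated barcodes, a choice made after the data were seen.

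**Figure D2:**
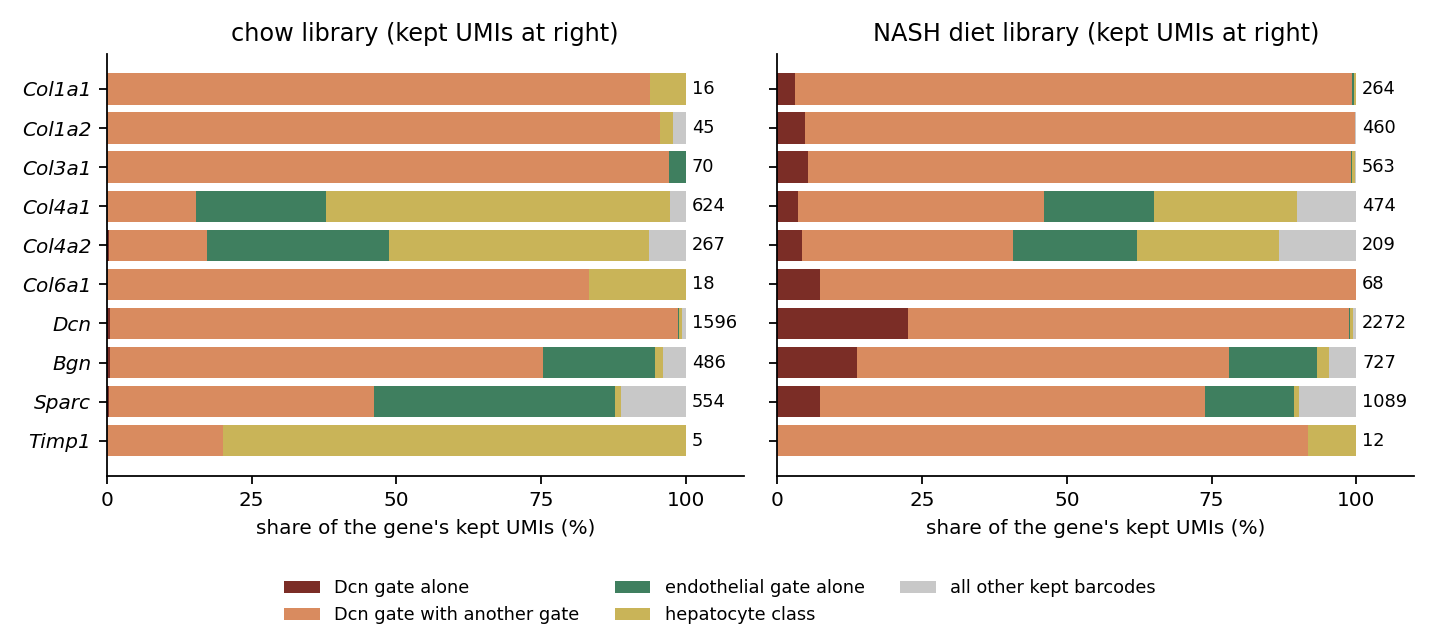
Share of each gene's kept UMIs (x axis, percent) that lay in each class of barcodes, for the 10 genes in the chow (left) and NASH diet library (right); numbers at right are the gene's kept UMIs. The fibrillar genes and Dcn lie almost wholly in Dcn-gated barcodes, while Col4a1 and Col4a2 are spread over Dcn-gated, endothelial and hepatocyte barcodes.

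Collagen IV was divided differently. Of 891 kept Col4a1 and Col4a2 UMIs in chow, 142 (15.9%, interval 13.6 to 18.5%) lay in Dcn-gated barcodes, 224 (25.1%, 22.3 to 28.1%) in barcodes past the endothelial gate alone and 491 (55.1%, 51.8 to 58.4%) in hepatocyte barcodes. Of 683 in the NASH diet library, 303 (44.4%, 40.6 to 48.2%) lay in Dcn-gated barcodes, 135 (19.8%, 16.8 to 23.0%) in endothelial and 168 (24.6%, 21.4 to 28.0%) in hepatocyte barcodes. Dcn-gated barcodes thus held a larger part of collagen IV under the NASH diet, and hepatocyte barcodes a smaller part, by more than counting error. These shares move with the size of the classes as well as with their levels: Dcn-gated barcodes held 175697 of 54452832 kept UMIs of all genes for chow and 302568 of 25761221 for the NASH diet, and hepatocyte barcodes 51979432 and 23481229. With barcodes past several gates counted in each class they pass, endothelial-gated barcodes held 42.9% for chow and 69.8% for the NASH diet, since most Dcn-gated barcodes are then endothelial too. In these shared barcodes, the part of collagen IV RNA that came from either cell type cannot be told apart.

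The remaining members lay between these patterns. Dcn chose the barcodes, so its 98.6% and 98.8% in them is no result. Of Bgn, 75.3% (interval 71.2 to 79.1%) of 486 chow UMIs and 78.0% (74.8 to 81.0%) of 727 NASH diet UMIs lay in Dcn-gated barcodes. Most of the rest lay in endothelial barcodes, with 19.3% and 15.1%. Sparc was the most evenly divided in chow, with 46.2% (42.0 to 50.5%) of 554 UMIs in Dcn-gated and 41.5% (37.4 to 45.7%) in endothelial barcodes. In the NASH diet library 73.8% (71.1 to 76.4%) of 1089 Sparc UMIs lay in Dcn-gated and 15.3% (13.2 to 17.6%) in endothelial barcodes. Col6a1 was found in no endothelial barcode, and Dcn-gated barcodes held 15 of its 18 chow UMIs and all 68 of its NASH diet UMIs. Timp1 was scarce throughout: 5 chow UMIs lay in 5 barcodes, 4 of them hepatocytes, and 10 of 12 NASH diet UMIs lay in 1 Dcn-gated barcode. That barcode also passed the endothelial and leukocyte gates, with 8 leukocyte gate UMIs. Which cell its Timp1 RNA came from was not tested.

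Within Dcn-gated barcodes, the fibrillar collagens made up a larger part of the RNA under the NASH diet, while Dcn, Bgn and collagen IV stayed within 2-fold. The 18 chow barcodes held 175697 UMIs and the 21 NASH diet barcodes 302568, and levels are given as CPM, the UMIs of a gene scaled to a total of 1000000 UMIs of all genes in those barcodes. Over all 7039 genes with 10 or more UMIs in these barcodes, 10.9% were at least 2-fold higher in the NASH diet library and 9.36% at least 2-fold lower, and the median log2 ratio was 0.0021. Of the 10 members, 5 were at least 2-fold higher (Col1a1, Col1a2, Col3a1, Col6a1 and Timp1) and 0 at least 2-fold lower, with a median log2 ratio of 1.13. Timp1 reached the fold on 1 against 11 UMIs, so it reached 10 UMIs through the NASH diet library. Its interval of the log2 ratio runs from -0.11 to 8.10.

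Col1a1, which encodes the alpha 1 chain of type I collagen, had 15 UMIs in 6 of 18 chow barcodes and 262 in 14 of 21 NASH diet barcodes, or 85.4 and 866 CPM. Its log2 ratio was 3.34 (interval 2.59 to 4.20). Col1a2, the alpha 2 chain, had 43 and 459 UMIs, in 11 and 13 barcodes, with a log2 ratio of 2.63 (2.18 to 3.12). Both chains of type I collagen were thus higher, and the intervals of their ratios overlap. Col3a1, the chain of type III collagen, had 68 and 558 UMIs, in 11 and 14 barcodes, with a log2 ratio of 2.25 (1.89 to 2.64). Summed, the fibrillar collagens had 717 CPM for chow and 4227 for the NASH diet, a 5.89-fold difference (log2 2.56, 2.29 to 2.84). Per Dcn UMI the log2 ratio was 2.83, and with stellate markers in place of Dcn as the gate it was 2.47.

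Collagen IV in the same barcodes stood close to the other genes measured. Col4a1 had 96 and 218 UMIs, a log2 ratio of 0.40 (0.05 to 0.76), and Col4a2 had 46 and 85, a log2 ratio of 0.10 (-0.43 to 0.65). Col6a1 had 15 and 68 UMIs, a log2 ratio of 1.40 (0.57 to 2.31). Sparc was 1.82-fold higher, at 1457 and 2657 CPM (log2 0.87, 0.66 to 1.08), under the fold set for a call. Bgn was at 2083 and 1874 CPM (log2 -0.15, -0.34 to 0.04), and Dcn, whose level the gate bounds from below, at 8959 and 7417 (log2 -0.27, -0.37 to -0.18). The plot of log2 ratios shows this order, with the fibrillar chains highest among the members of 10 or more UMIs in each library, although the interval of Col6a1 overlaps those of Col1a2 and Col3a1.

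**Figure D3:**
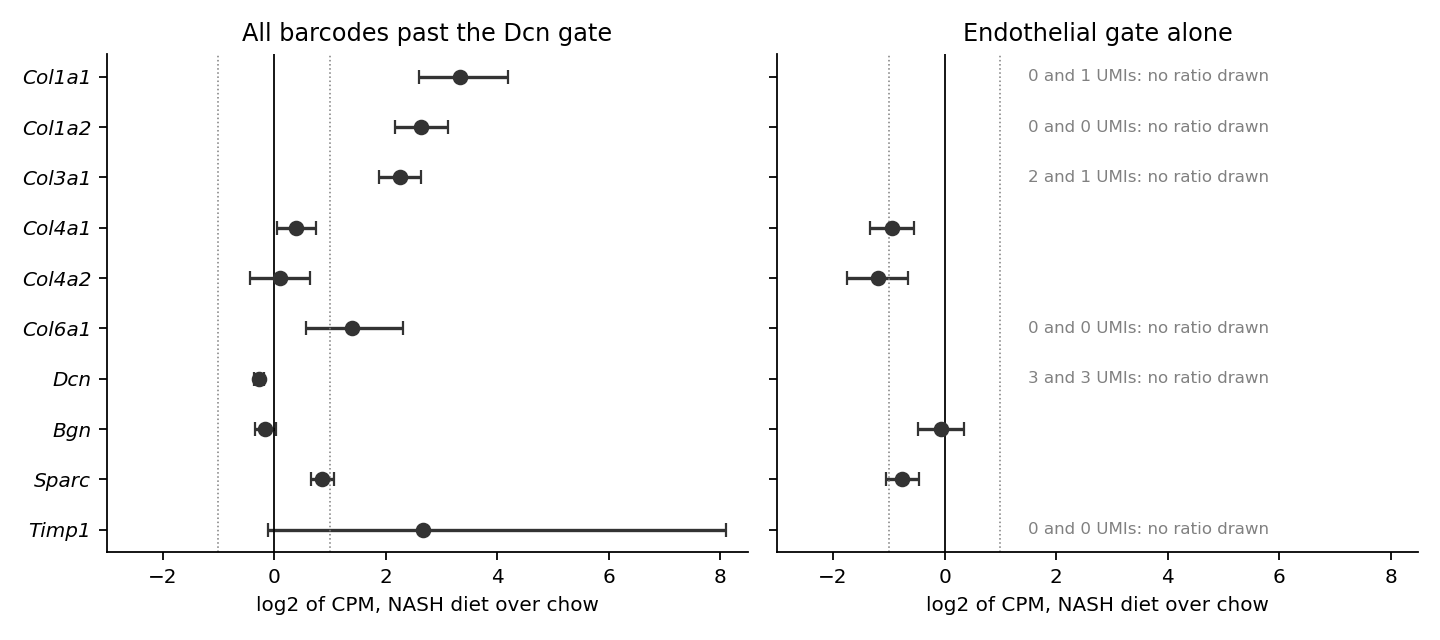
Log2 ratio of CPM, NASH diet over chow (x axis), for the 10 genes in all Dcn-gated barcodes (left) and in barcodes past the endothelial gate alone (right); points are ratios of summed counts, bars 95% intervals of counting error, dotted lines the 2-fold limits. The intervals of Col1a1, Col1a2 and Col3a1 lie wholly above the dotted line in Dcn-gated barcodes, and those of Col4a1, Col4a2 and Sparc lie below 0 in endothelial barcodes.

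The libraries also differed in what else these barcodes carried. The Kupffer gate genes Clec4f, Vsig4, Cd5l and Timd4 were all at least 2-fold lower in the Dcn-gated barcodes of the NASH diet library (4 of 4, median log2 -3.81), with Clec4f at 310 and 17 UMIs. Of the 7 further endothelial markers, 1 was at least 2-fold higher, Pecam1 with 23 and 95 UMIs. Kdr had 151 and 406 UMIs (log2 0.64) and Ptprb 175 and 379 (log2 0.33). Of 10 hepatocyte markers, 2 were at least 2-fold lower. The median mitochondrial part of the UMIs was 8.98% in the Dcn-gated barcodes for chow and 14.2% for the NASH diet. The part of these in the ratios was not tested. In barcodes not past the Kupffer gate the fibrillar log2 ratio was 2.44 (2.03 to 2.89). There the collagen IV log2 ratio was -0.13 (-0.52 to 0.28), against 0.31 (0.02 to 0.61) in all Dcn-gated barcodes. Dcn and Bgn were lower under the NASH diet in the barcodes not past the Kupffer gate, by more than counting error, with log2 ratios of -0.67 (-0.79 to -0.54) and -0.80 (-1.03 to -0.55). In chow, these barcodes are 5 past the endothelial gate and 3 past the Dcn gate alone. Most of their 682 Dcn UMIs came from barcodes with 218, 170, 155 and 113, and the intervals do not cover differences between barcodes. Sparc was at 0.62 (0.32 to 0.93) in them.

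The fibrillar UMIs were unevenly spread over barcodes. Among barcodes of at least 5000 UMIs, the 13 in chow had a lowest value of 0, a median of 528 and a highest of 1794 fibrillar CPM. The 15 in the NASH diet library had a lowest value of 0, a median of 967 and a highest of 18782. In this comparison 7 of the 15 NASH diet barcodes lay above the highest chow barcode and the other 8 lay within the chow range. The barcode at 18782 CPM held 573 of the 1279 fibrillar UMIs (44.8%), and the top 3 held 74.2%. Without the barcode that held most fibrillar UMIs in each library, the log2 ratio was 2.07 (1.77 to 2.39). Ranges overlapped for every member: Col1a2 and Col3a1 were each above the chow maximum in 7 of 15 barcodes, Col1a1 and Col6a1 each in 6, Sparc in 4, Col4a1 and Dcn each in 2, Timp1 in 1, and Col4a2 and Bgn in 0.

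**Figure D4:**
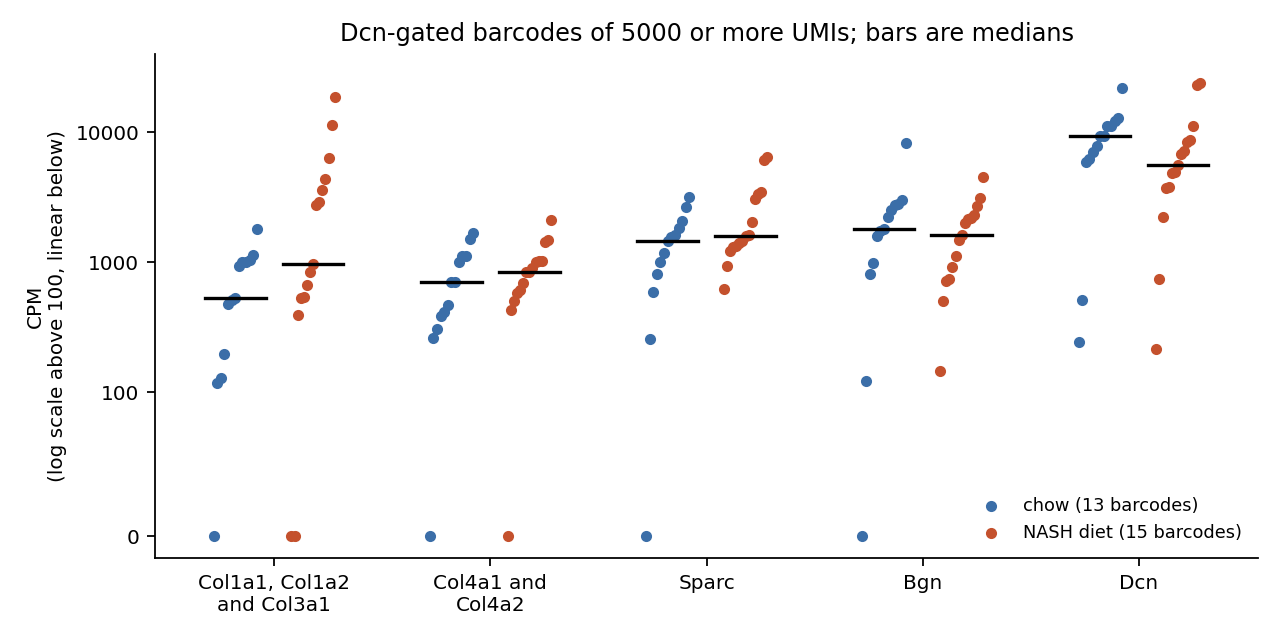
CPM (y axis, log scale above 100) in each Dcn-gated barcode of at least 5000 UMIs, for the summed fibrillar collagens, summed collagen IV, Sparc, Bgn and Dcn; points are barcodes, bars are medians. For the fibrillar sum 7 of 15 NASH diet barcodes lie above every chow barcode, while the other sums and genes overlap over most of their range.

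Single barcodes are given next. In the barcode richest in fibrillar RNA, collagen IV (2131 CPM) and Sparc (6425 CPM) were also the highest among Dcn-gated barcodes of at least 5000 UMIs. The NASH diet barcode richest in fibrillar RNA had 30508 UMIs, with 131 of Col1a1, 226 of Col1a2 and 216 of Col3a1, beside 115 of Dcn, 196 of Sparc, 65 of collagen IV and 36 of Ptprb and Kdr. The next had 23726 UMIs, with 36, 93 and 140 fibrillar UMIs, 264 of Dcn and 145 of Sparc. The barcode with most Dcn, 483 of 20850 UMIs, was the only one of at least 5000 UMIs past the Dcn gate alone: it had 0 Ptprb and Kdr UMIs and still 15 of Col4a1 and 6 of Col4a2, with 6, 22 and 29 fibrillar UMIs. In it, collagen IV was at 1007 CPM without a UMI of either endothelial gate gene, although it had 5 of the endothelial marker Clec4g. The chow barcode with least endothelial RNA among those rich in Dcn had 7092 UMIs, 155 of Dcn and 2 of Ptprb, and it had 0 of Col1a1, 4 of Col1a2, 4 of Col3a1 and 5 of Col4a1. The highest fibrillar level in chow was in a barcode of 15051 UMIs with 5, 6 and 16 fibrillar UMIs, 93 of Dcn and 17 of Ptprb and Kdr.

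Other genes of the matrix, grouped by lists that hold some of the members, are given next for all Dcn-gated barcodes. Genes named because they passed the fold were chosen after their values were seen. Over all genes counted well enough in these barcodes, 10.9% were at least 2-fold higher and 9.36% at least 2-fold lower. Of 7 fibrillar collagen genes, 5 were counted well enough and all 5 were at least 2-fold higher in the NASH diet library, Col5a1 (19 and 80 UMIs, log2 1.29) and Col5a2 (8 and 37, log2 1.43) besides the members. Their type V chains are built into type I fibrils. Of 13 basement membrane genes, 9 were counted well enough and 0 passed the fold in either direction, with a median log2 ratio of 0.10. Among these, Hspg2, the proteoglycan perlecan, had 49 and 153 UMIs (log2 0.86, 0.39 to 1.35) and Nid1, the linker protein nidogen, 62 and 109 (log2 0.03). Of 7 further collagens, 3 of 5 counted well enough were higher, the collagen VI chains Col6a1, Col6a2 and Col6a3, the last with 20 and 128 UMIs (log2 1.89), while Col14a1 had 139 and 299 (log2 0.32).

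Enzymes that cut or join matrix proteins were partly higher. Of 10 proteases and inhibitors, 5 of 8 counted well enough were at least 2-fold higher (Timp1, Timp3, Mmp14, Adamts2 and Adamts5), with a median log2 ratio of 1.15. Timp1 and Adamts5 had 1 and 6 chow UMIs, so they reached 10 UMIs mainly through the NASH diet library. Timp3, an inhibitor bound to the matrix, had 70 and 308 UMIs (log2 1.35, 0.97 to 1.75), and Adamts2, which trims fibrillar procollagens, 12 and 48 (log2 1.22). Adamts1, a protease of proteoglycans, had 50 and 127 (log2 0.56). Of 12 genes of collagen folding and crosslinking, 4 of 10 were higher (Loxl1, Loxl2, Plod2 and Bmp1) and 1 lower (Plod3). The 4 higher genes had 0, 7, 2 and 3 chow UMIs, so they reached 10 UMIs mainly through the NASH diet library. Plod2 had 2 and 8 UMIs (log2 interval -1.11 to 4.49) and Bmp1 3 and 16 (-0.17 to 4.05). Plod3 had 9 and 7 (-2.81 to 0.45), so the intervals of Plod2, Bmp1 and Plod3 include 0. Of the crosslinking enzymes, Loxl1 was counted with 0 and 27 UMIs (at least 5.23-fold at a floor of 3 counts over the chow barcodes) and Loxl2 with 7 and 37 (log2 1.62). The collagen chaperone Serpinh1 had 94 and 236 (log2 0.54) and P4hb, a subunit of prolyl hydroxylase, 44 and 89 (log2 0.23). Of 9 matricellular genes, 5 were higher (Thbs1, Tnc, Cyr61, Ctgf and Spon2), Cyr61 with 4 and 57 UMIs (log2 3.05), while Postn, or periostin, had 29 and 90 (log2 0.85). Those 5 had only 1 to 4 chow UMIs each, so they reached 10 UMIs through the NASH diet library. Spon2 had 4 and 14, with an interval from -0.65 to 3.08. Of 8 small leucine-rich proteoglycans, 1 of 6 was higher (Podn, with 1 and 17 UMIs) and Prelp had 146 and 196 UMIs (log2 -0.36). Podn too reached 10 UMIs through the NASH diet library.

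Few markers of stellate cell state passed the fold. Of 14 genes of quiescent stellate cells, 13 were counted well enough, 0 were at least 2-fold higher and 2 were lower: Ngfr, a neurotrophin receptor, with 31 and 9 UMIs (log2 -2.57, -3.82 to -1.46) and Hgf, hepatocyte growth factor, with 112 and 70 (log2 -1.46, -1.91 to -1.02). Hgf was also counted in endothelial barcodes, with 54 and 36 UMIs. Ecm1 had 445 and 407 UMIs (log2 -0.91). Of 9 contractile genes of myofibroblasts, 1 of 4 was higher, Tagln with 11 and 48 UMIs (log2 1.34), and Acta2, smooth muscle actin, had 0 and 6 UMIs. Of 14 genes of TGF-beta and PDGF signalling, 0 of the 9 counted well enough passed the fold, with Tgfbr3 at 50 and 55 UMIs and Smad7 at 25 and 76. Of 10 portal fibroblast genes only Dpt and Gas6 were counted well enough. Dpt had 2 and 33 UMIs (log2 3.26), so it was counted well enough through the NASH diet library. The 33 came from 5 of the barcodes that stood above the chow range in fibrillar collagen.

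In barcodes past the endothelial gate alone, collagen IV and Sparc were lower under the NASH diet, with 229679 UMIs in the 44 chow and 282249 in the 40 NASH diet barcodes. Of 7053 genes counted well enough there, 12.5% were at least 2-fold higher and 9.63% at least 2-fold lower, with a median log2 ratio of -0.09. Of the members, 4 were counted well enough, 1 passed the fold, downward, and 0 upward. Col4a1 had 140 UMIs in 38 of 44 chow barcodes and 90 in 26 of 40 NASH diet barcodes (log2 -0.93, -1.33 to -0.54). Col4a2 had 84 and 45 UMIs (log2 -1.20, -1.75 to -0.66) and was the member past the fold. Sparc had 230 and 167 UMIs (log2 -0.76, -1.06 to -0.47), and Bgn 94 and 110 (log2 -0.07). Per barcode, Col4a1 ranged from 0 to 2030 CPM in chow, with a median of 481, and from 0 to 1238 in the NASH diet library, with a median of 197, so the ranges overlapped widely.

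Other values moved with it in those barcodes. All 7 further endothelial markers had log2 ratios below 0 (median -0.65), with 1 past the fold, Clec4g, a lectin of sinusoidal endothelium, at 739 and 384 UMIs (log2 -1.24). The gate genes Ptprb and Kdr had log2 ratios of -0.20 and -0.26. In summed counts, all 10 hepatocyte markers were above 0 and 6 were at least 2-fold higher, Alb with 233 and 1230 UMIs. The median barcode did not show this rise: hepatocyte markers made up 0.583% of its UMIs for chow and 0.488% for the NASH diet. The median mitochondrial part of the UMIs was 9.79% for chow and 16.7% for the NASH diet. The part of these in the collagen IV ratio was not tested. When barcodes past several gates were counted as endothelial too, the collagen IV log2 ratio was -0.17 (-0.36 to 0.03), so the decrease depends on leaving them out. Sparc was then higher under the NASH diet, with 532 and 958 UMIs (log2 0.36, 0.21 to 0.52), so its decrease depends on leaving them out too. Among other basement membrane genes, Nid1 had 64 and 31 UMIs (log2 -1.34, -2.01 to -0.70) and Hspg2 160 and 153 (log2 -0.36).

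Hepatocyte barcodes held more collagen IV UMIs than any other chow class, at a low level in many barcodes. Col4a1 had 371 UMIs in 310 of 2214 chow barcodes and 117 in 98 of 1294 NASH diet barcodes, at most 4 in any 1 barcode, or 7.14 and 4.98 CPM (log2 -0.52, -0.83 to -0.21). Sparc had 6 and 10 UMIs and Ptprb with Kdr 25 and 13 in the same barcodes. Endothelial RNA was not absent there: Stab2 had 31 and 71 UMIs and Clec4g 11 and 10. Of the 7 further endothelial markers, 5 were counted well enough. Of these, 3 were at least 2-fold higher in the NASH diet library, against 7.52% of all genes in hepatocyte barcodes. In endothelial barcodes there were 0.609 and 0.539 Col4a1 UMIs for each Sparc UMI, and in hepatocyte barcodes 61.8 and 11.7. The ratio of the 2 genes thus differed between the classes in both libraries, although the Sparc values of hepatocyte barcodes rest on few UMIs. The source of Col4a1 RNA in hepatocyte barcodes was not tested further. Thinned to 5000 UMIs per barcode, which left out 215 chow and 217 NASH diet barcodes, Col4a1 was in 3.65% (73 of 1999) and 2.51% (27 of 1077) of hepatocyte barcodes and Sparc in 0.150% and 0.0929%. Unthinned, Col4a1 was in 14.0% and 7.57%, at median depths of 24488.5 and 18547 UMIs. Kupffer barcodes had 0 Col4a1 UMIs in 52 chow and 25 NASH diet barcodes.

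**Figure D5:**
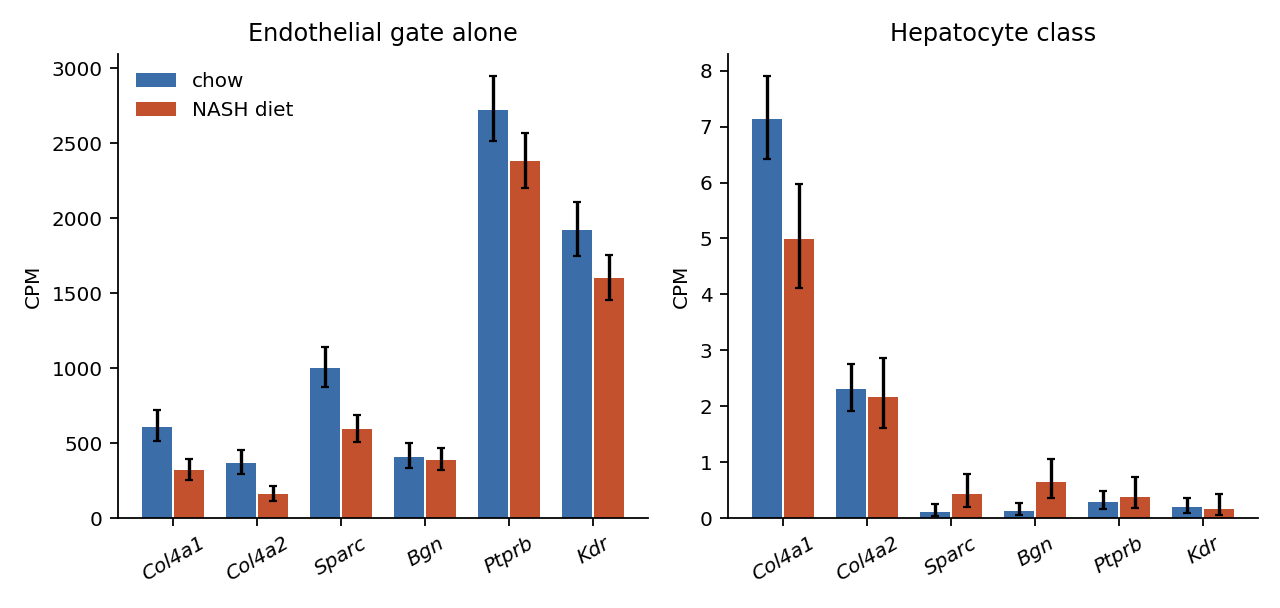
CPM (y axes, linear, each from 0 and on its own scale) of Col4a1, Col4a2, Sparc, Bgn, Ptprb and Kdr in barcodes past the endothelial gate alone (left) and in hepatocyte barcodes (right); bars are summed levels and error bars 95% Poisson intervals. Col4a1 stands above Sparc, Ptprb and Kdr in hepatocyte barcodes and below them in endothelial barcodes.

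Over 12376 genes counted well enough in hepatocyte barcodes, 7.52% were at least 2-fold higher and 4.8% at least 2-fold lower in the NASH diet library. Of the 5 members counted well enough, 3 passed the fold upward (Dcn, 8 and 11 UMIs, Bgn, 7 and 15, and Sparc, 6 and 10) and 0 downward. These rest on 6 to 15 UMIs in each library, at levels under 1 CPM. Col4a1 made up 75.6% (interval 71.5 to 79.3%) of collagen IV UMIs in chow hepatocyte barcodes and 62.5% (55.8 to 68.9%) in chow endothelial barcodes, against 69.6% (62.1 to 76.5%) and 66.7% (58.0 to 74.5%) in the NASH diet library. The 2 genes of the head-to-head pair were thus counted in like proportion across classes, with a gap beyond counting error between the 2 chow classes only.

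Across classes the levels ran as follows, chow first. Fibrillar collagen was at 717 and 4227 CPM in Dcn-gated barcodes, at 8.71 and 7.09 in endothelial, and at 0.0385 and 0.170 in hepatocyte barcodes. Collagen IV was at 808 and 1001 in Dcn-gated, 975 and 478 in endothelial and 9.45 and 7.16 in hepatocyte barcodes. Dcn-gated and endothelial barcodes did not differ beyond counting error in collagen IV in chow, and they did in the NASH diet library. Over 6 classes in 2 libraries (12 points that share libraries and depth), the genes outside the members whose log2 level was most like that of the fibrillar sum were Col6a3, Adamts2, Fstl1, Smoc2 and Postn, with Pearson correlations from 0.990 to 0.994 among 11767 genes. Those most like collagen IV were Adamts1, Lzts2, Dock6, Dip2a and C1qtnf1, with correlations from 0.994 to 0.996. Of the members outside these sums, Sparc was closer to collagen IV (0.986) than to the fibrillar sum (0.786), and so was Bgn (0.939 and 0.823). Col6a1, Dcn and Timp1 were closer to the fibrillar sum.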

How the data were processed

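Single-cell RNA of C57BL/6 liver was measured in 1 chow and 1 NASH diet library. The deposited matrices hold UMI counts of each gene in each barcode as whole numbers, not normalized, per the file headers. The submitters' processing notes name Cell Ranger 3.1.0, Seurat and mm10, the build that GRCm38 names too, while the file header gives software version 3.0.2. The authors also deposited a merged matrix, in which the chow part holds 86.4% of that library's UMIs and the NASH diet part is identical. It was used as an alternative only. Columns of no known sample numbered 0.

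The 10 genes, the lists and the gates were chosen with earlier results of these data known. Kept barcodes had 200 or more genes, 500 or more UMIs and no more than 30% of UMIs from mitochondrial genes. A gate needed 2 UMIs of its genes and 200 CPM (counts scaled to a total of 1000000). Hepatocyte barcodes passed no gate and had at least 2000 UMIs, with at least 1% of them from hepatocyte markers. The planned rule left out barcodes past several gates. The values for all Dcn-gated barcodes keep them, 15 of 18 for chow and 15 of 21 for the NASH diet, so possible doublets are in those values. Scrublet in scanpy 1.11.5 called 0 barcodes and so did not work by its own threshold, and its highest scores (0.8% per 1000 barcodes, 433 and 277 barcodes) were left out as an alternative. UMIs were summed per library and class and divided by the class's UMIs. Counts have exact Poisson, shares exact binomial (Clopper-Pearson) and ratios exact conditional binomial intervals at 95% (scipy 1.17.1). The ratio values and the upward 2-fold call were checked on simulated counts, and the intervals were not. A gene was called past the fold at 2-fold or more with 10 or more UMIs over both libraries, a library at 0 being set to 3 counts over the class. Named were the 10 members, the 5 genes whose log2(CPM + 10) over classes was most like the fibrillar sum and the 5 most like collagen IV (among genes of 50 or more kept UMIs), and 2 to 4 genes with most UMIs in a list. The list names Ccn1 and Ccn2 were matched to the files' Cyr61 and Ctgf through RefSeq synonyms. The merged matrix, other mitochondrial limits and gate minimums, a stellate gate without members, the treatment of several gates, the Scrublet scores, leaving out the top barcode and means over barcodes were tried.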

Additional observations from a re-analysis of the deposited data

How the results depend on the processing

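No paired analysis was possible because each diet has 1 library. Of the settings tried on results over several genes or barcodes, 79 kept the value within its counting interval and 13 did not. Part of the 79 was fixed in advance. The main fibrillar log2 ratio in barcodes past the Dcn gate alone was a bound of 0.43, with no upper limit to its interval. Values of 1.99 (no mitochondrial limit) and 2.56 (several gates counted) were thus within it. No Dcn-gated barcode had one of the highest Scrublet scores, so leaving these out changed no ratio in such barcodes, of sums or single members. The NASH diet part of the merged matrix was identical, so its shares could not move. Counting barcodes past several gates in each class moved the most. The share of kept barcodes past the Dcn gate then went from 0.0693% to 0.416% in chow and from 0.253% to 0.886% in the NASH diet library. The share of fibrillar collagen UMIs in them went from 0% to 96.2% and from 4.66% to 99.4%. The share of collagen IV UMIs in endothelial-gated barcodes went from 25.1% to 42.9% and from 19.8% to 69.8%. The log2 ratio of collagen IV in them went from -1.03 to -0.17, and that of Dcn in Dcn-gated barcodes changed sign, from 1.94 to -0.27. With no mitochondrial limit 0.628% of NASH diet barcodes passed the Dcn gate alone, and with a gate minimum of 1 UMI 0.760%. With a minimum of 4 UMIs the chow fibrillar share was 6.11%. Without the top barcode the NASH diet fibrillar share in barcodes past the Dcn gate alone was 0.244%, and the log2 ratio in all Dcn-gated barcodes 2.07. In barcodes not past the Kupffer gate the collagen IV log2 ratio was -0.13. For single members, 184 values kept within their interval, 18 moved and 1, that of Dcn in Dcn-gated barcodes, was counted as reversed. Changes of sign were not limited to Dcn. With barcodes past several gates counted, the log2 ratio of Sparc in endothelial-gated barcodes went from -0.76 to 0.36. With a gate minimum of 4 UMIs, that of Bgn in barcodes past the Dcn gate alone went from 1.17 to -0.75. In barcodes past the Dcn gate alone the fibrillar ratio could not be had with the stellate gate, with the merged matrix, without the top barcode or as a mean over barcodes, because chow was at 0 and the floor gave no bound. These counts are limited by depth: 3 and 6 barcodes pass the Dcn gate alone, and 1 library of each diet gives no spread between mice.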
